A study of Mus musculus with 2 samples.

Results

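Plasmacytoid dendritic cells (pDCs) are rare immune cells that sense viral and self nucleic acids through endosomal Toll-like receptors and can secrete large amounts of type I interferon. They depend on the transcription factor TCF4, present antigen less well than conventional dendritic cells (cDCs), and in tumors have been described in both activating and tolerant states. Here they were examined among CD45+ cells of mouse liver metastases. The members were selected on their UMI counts (1 unique molecular identifier, or UMI, counts 1 captured RNA molecule) of 9 genes. A cell was taken as a pDC if it held at least 1 UMI of Siglech, an inhibitory receptor of mouse pDCs, and at least 1 UMI of Ccr9, Klk1, Cox6a2, Pacsin1 or Ly6d, and no UMI of Cd3e, C1qa or Adgre1, genes of T cells and macrophages. By this rule 120 of 19999 filtered cells were pDCs, of 21359 cells deposited. Because these 9 genes chose the cells, their values are given as a description only.

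The 2 libraries came from C57BL/6 mice of 6 to 8 weeks, 2 weeks after intrasplenic injection of MC38-LM3b, a line with high liver metastasis made from MC38 mouse colorectal cancer cells. The tumor cells carried MC38-LM3b-shScramble (Ctrl) or MC38-LM3b-shSLAMF3 (KD, a hairpin against SLAMF3, a SLAM family receptor encoded by Ly9), so the hairpin was in the tumor cells and not in the host cells described here. Each group was 1 library of lesions pooled from 3 mice, enriched for CD45+ cells. No replicate error exists, no test of the groups was possible, and every interval below is a 95% interval that covers counting error only. A difference between the libraries therefore cannot be told apart from a difference between pools of mice or between library preparations.

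The Ctrl library gave 62 pDCs of 9814 filtered cells, or 0.632% (exact Clopper-Pearson interval 0.485 to 0.809%), and the KD library gave 58 of 10185, or 0.569% (0.433 to 0.736%). The share in KD minus that in Ctrl was −0.0623 percentage points, with an interval from −0.286 to 0.160, so no difference was detectable at this number of cells. The denominator mattered. A neutrophil gate took cells with at least 2 UMIs each of the neutrophil genes S100a8 and S100a9 and none of Siglech, Cd3e, C1qa, Adgre1 or Cd79a. It held 403 cells in Ctrl and 1656 in KD, and among the remaining cells the pDC shares were 0.659% and 0.680%. A wider limit left out every cell with at least 2 UMIs over S100a8 and S100a9 and no Siglech, which removed 950 Ctrl and 4614 KD cells. The shares were then 0.699% and 1.04%, and the difference was 0.342 points (0.0241 to 0.685). All pDCs stayed in, since they hold Siglech, although 2 Ctrl and 20 KD pDCs had at least 2 UMIs of a list of neutrophil genes. The last difference therefore does not treat pDCs and other cells alike.

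The members were of ordinary depth. They held 378733 UMIs in Ctrl and 349852 in KD, with a median of 5912 UMIs per cell in Ctrl (lowest 2536, highest 18183) and 6036 in KD (lowest 844, highest 18555), against 5411.5 and 4989 over all filtered cells. Under 3000 UMIs were 2 Ctrl and 7 KD members. Mitochondrial transcripts made up a median of 1.13% of a member's UMIs in Ctrl and 2.09% in KD, and 1.41% and 1.82% in the other filtered cells, and the part of this difference in the results below was not tested. The libraries shared 27 barcodes, 1 of which was a Ctrl member and none a KD member.

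Most members carried several of the genes in the rule. In Ctrl, 5 of 5 partner genes were detected in 22 members, 4 in 28 and 3 in 8, which left 1 member with 2 and 3 members with 1. In KD the numbers were 23, 15, 13, 3 and 4. Siglech had a median of 5.5 UMIs per Ctrl member (1 to 19) and 7 per KD member (1 to 21). Klk1, a kallikrein protease, was found in 35 of 62 Ctrl and 37 of 58 KD members, and Cox6a2, a cytochrome c oxidase subunit best known from muscle, in 53 and 39. The 4 KD members with only 1 partner gene were shallow (median 2115.5 UMIs) and had 738 CPM of Bst2, far below the 3566 CPM of KD members with 5 partner genes; CPM are counts per 1000000 UMIs of the summed cells.

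At the edge of the rule, members with 1 Siglech UMI (6 in Ctrl, 5 in KD) still held 3412 and 3293 CPM of Tcf4, against 3478 and 3562 CPM in members with more. Their other pDC genes were lower: Irf8 had 1436 against 2609 CPM in Ctrl and 1246 against 2413 in KD, Runx2 had 718 against 1321 and 712 against 1456, and Bst2 had 3232 against 3666 and 2314 against 3650. The 4 Ctrl cells just outside, with Siglech but no partner gene, held 141 CPM of Tcf4, and the 3 such KD cells held 1747. A larger group was excluded by the last condition. Of cells with Siglech and a partner gene, 19 in Ctrl and 15 in KD had C1qa, a complement gene of macrophages, at a median of 1 UMI, and those cells held 3378 and 2465 CPM of Tcf4 and 3281 and 2179 of Bst2. They also held 497 and 1435 CPM of C1qb, a further macrophage complement gene, against 46.3 and 23.6 in members with at least 2 Siglech UMIs. Without that condition the pDCs would number 84 in Ctrl and 74 in KD.

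The label was set against genes outside the rule. Their list was chosen with earlier results of these data known, so it is a description and not an independent check. Of 25 pDC genes that the rule did not use, 24 were at least 2-fold above the other filtered cells in both libraries and 14 at least 10-fold. The exception was Zeb2, a repressor shared with many myeloid cells, at 0.741-fold and 0.650-fold. Tcf4, the master regulator of pDCs, was 25.4-fold above the other cells in Ctrl and 19.7-fold in KD and was detected in all 62 and 58 members. Bst2, the tetherin recognized by pDC antibodies, was 10.2-fold and 14.04-fold above and was detected in 62 and 55 members. Spib, an ETS factor that works with TCF4, was 92.9-fold and 43.7-fold above, and Bcl11a, a further transcription factor of the lineage, 48.8-fold and 34.5-fold.

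**Figure D1:**
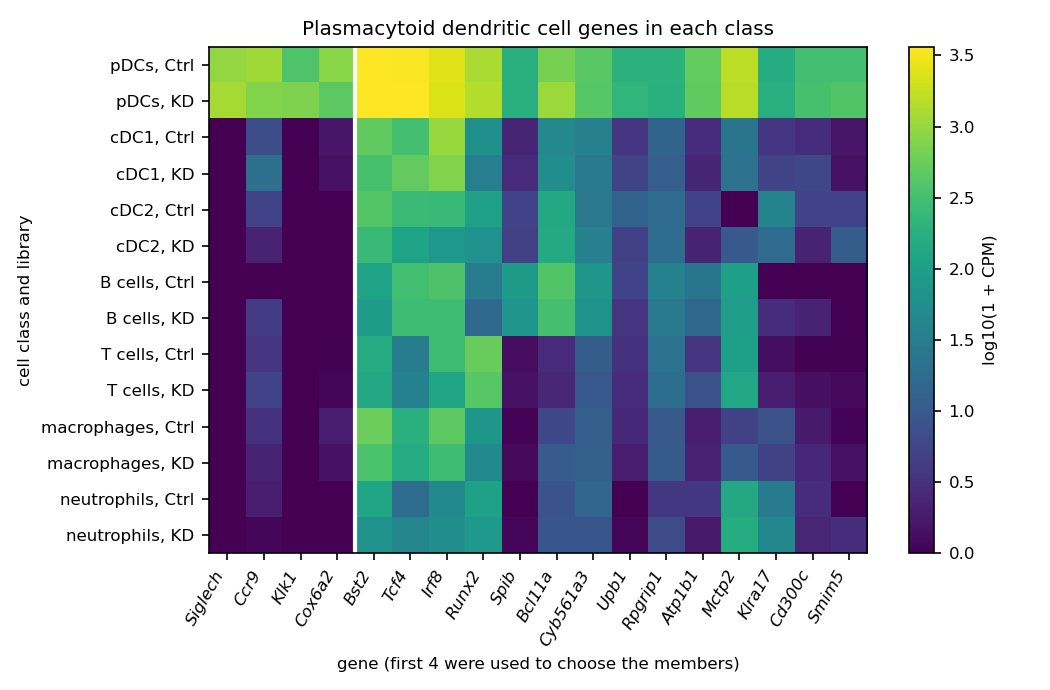
Level of 18 genes as log10(1 + CPM) in summed cells of 7 classes (rows, each in Ctrl and KD), where classes other than pDCs were required to have no Siglech. The 4 genes left of the white line helped to choose the members, and the genes to its right did not; Bst2, Tcf4, Spib, Atp1b1, Cd300c and Smim5 are brighter in both pDC rows than in any other row.

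The 25 genes with the highest ratio of members to other filtered cells (the lower of both libraries, among genes with at least 50 UMIs) included Klk1, Cox6a2, Siglech and Ccr9 of the rule. Among those that the rule did not use, Dntt, the terminal transferase of lymphoid progenitors, was 304-fold above in Ctrl and 777-fold in KD and was detected in 37 and 32 members. Grm8, a glutamate receptor gene, was 331-fold and 316-fold above with 309 and 312 UMIs. Klk1b27, a paralog of Klk1 whose reads may be confused with those of Klk1, was 401-fold and 403-fold above. Smim5, Cd300c, Havcr1, Pdzd4 and Lefty1 were all more than 100-fold above in both libraries. The unnamed gene Gm21762 held 170 and 156 UMIs in 51 and 45 members. These ratios rest on few UMIs in the other cells and describe the cells chosen.

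Most genes of the lineage differed little between the libraries. As log2 of KD over Ctrl, the ratio was −0.01 for Bst2 (1374 and 1262 UMIs, interval −0.12 to 0.10), 0.03 for Tcf4 (1315 and 1243, −0.08 to 0.15) and −0.08 for Irf8, a transcription factor of pDCs and cDC1 (949 and 831, −0.21 to 0.06). Runx2, needed for pDC egress from bone marrow, had 480 and 501 UMIs (0.18, −0.01 to 0.36). Summed over the 25 genes, 10203 UMIs in Ctrl and 9363 in KD gave a log2 ratio of −0.01 (−0.05 to 0.03). Single members of the list lay outside counting error. Bcl11a was higher in KD, with 252 and 371 UMIs (0.67, 0.44 to 0.91), and so was the protease gene Ctsl, with 572 and 711 (0.43, 0.27 to 0.59). Plac8 was lower in KD, with 2021 and 1537 UMIs (−0.28, −0.38 to −0.18), as was Ly6c2, with 373 and 280 (−0.30, −0.53 to −0.07). None of the 25 reached 2-fold, where over all genes tested 2.07% were at least 2-fold higher in KD and 3.13% at least 2-fold lower.

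Of 3957 genes with at least 30 UMIs over both libraries, 82 were at least 2-fold higher in KD members (2.07%) and 124 at least 2-fold lower (3.13%), after 0.5 UMI was added on both sides. The median log2 ratio over all of them was −0.04. Many of these genes had few UMIs: with at least 100 UMIs required, 6 were higher and 17 lower. Some came from single cells, since 7 members held at least 20 UMIs of a list of another cell type or of the cell cycle, and all 7 were among the 20 members with a high doublet score (11 in Ctrl, 9 in KD). In Ctrl these were a cell of 18183 UMIs with 87 UMIs of liver endothelial genes (46 of Stab2) and cells with 81 and 27 UMIs of macrophage genes. In KD they were a cell of 10653 UMIs with 486 UMIs of neutrophil genes (276 of S100a9), a cell of 18555 UMIs with 225 UMIs of cell cycle genes, a cell of 16900 UMIs with 53 UMIs of cDC1 genes and a cell with 27 UMIs of T cell genes. Values without these 7 cells are given beside the main differences.

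**Figure D2:**
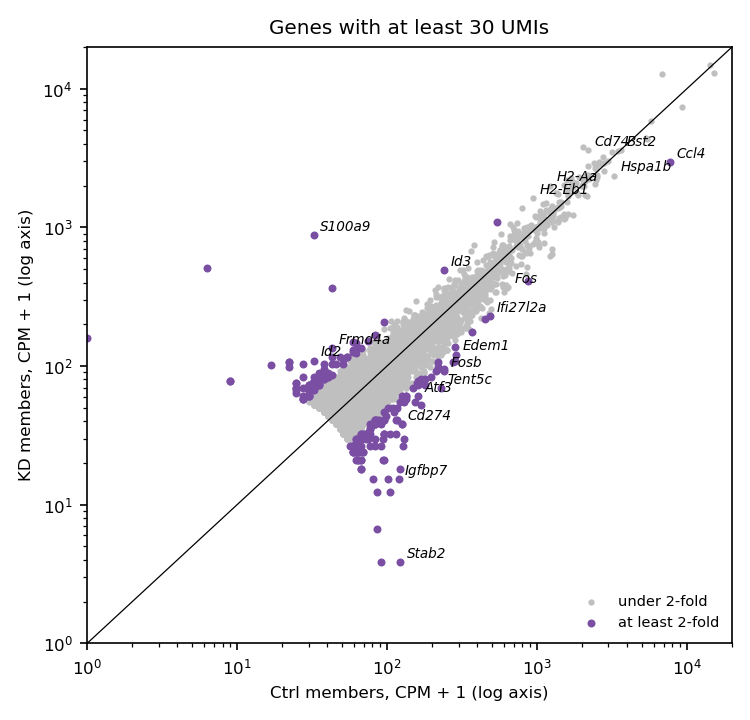
Each point is 1 of 3957 genes, with its CPM + 1 summed over 62 Ctrl members (x axis, log) and 58 KD members (y axis, log), and the diagonal marks equal levels. Ccl4 lies far below the diagonal among abundant genes, while Bst2 lies on it, and S100a9 and Stab2 lie far off it, with 276 of 309 KD UMIs of S100a9 and all 46 Ctrl UMIs of Stab2 in 1 cell each.

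The chemokine Ccl4 (ENSMUSG00000018930), which attracts T cells and monocytes, had the largest log2 ratio, in size, among the 72 genes with at least 1000 UMIs. It had 2909 UMIs in Ctrl members and 1031 in KD members, or 7681 and 2947 CPM, a log2 ratio of −1.38 (−1.49 to −1.28). At least 1 UMI was found in 54 of 62 Ctrl members (87.1%, 76.1 to 94.3%) and in 36 of 58 KD members (62.1%, 48.4 to 74.5%). The level per cell had a median of 3937 CPM in Ctrl (0 to 33698.5) and 454 in KD (0 to 23850), so the ranges overlapped while the middle of the cells differed. Members with at least 50 UMIs numbered 24 in Ctrl (38.7%, 26.6 to 51.9%) and 7 in KD (12.1%, 4.99 to 23.3%). As a share of all Ccl4 UMIs, the 10 highest members held 50.2% in Ctrl and 84.2% in KD.

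Over the sets of members tried, the Ccl4 log2 ratio ranged from −2.95 to −1.19. With stricter cell limits or at least 2 Siglech UMIs it was −1.33 and −1.35. The log2 ratio was −1.54 (−1.65 to −1.42) without the 7 cells and −1.53 without the highest cell of each library. With every cell thinned to 1500 UMIs, Ccl4 was found in 50 of 62 Ctrl pDCs (80.6%) and 27 of 55 KD pDCs (49.1%). In B cells, taken as a class with little Ccl4, the shares were 5.59% and 6.14%, so not lower in KD. They were 48.3% and 29.0% in neutrophils, 46.0% and 34.5% in T cells and 40.5% and 33.7% in cDC2. Macrophages had 34.6% and 34.4%, and cDC1 27.2% and 19.1%. Median UMIs before thinning were 5912 and 6036 in pDCs and 2772.5 and 2728 in B cells. The related gene Ccl3, with 122 and 86 UMIs, had a log2 ratio of −0.39 (−0.81 to 0.02) and was found in 25 and 11 members. Of 5 tested chemokines, 2 were at least 2-fold higher and 1 lower, where 2.07% and 3.13% of all genes tested were. The higher ones were Cxcl2, a neutrophil chemokine, with 8 and 37 UMIs, and Ccl6, with 9 and 24. Of these KD UMIs, 28 and 15 lay in the cell with 486 UMIs of neutrophil genes.

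In other classes of the same libraries Ccl4 had log2 ratios of −0.56 in cDC1, −0.16 in cDC2, −1.80 in B cells, −0.37 in T cells, 0.40 in macrophages and −1.61 in neutrophils. The value was below 0 in 5 of these 6 classes, although the interval in cDC2 reached 0.03, and above 0 in macrophages. In Ctrl, pDCs held 7681 CPM against 3442 in neutrophils, 1296 in cDC2 and 1160 in T cells. In KD the pDCs held 2947 CPM, still above the 1162 of cDC2, the highest of the other classes. The cDC1 gate needed only a UMI of Clec9a or Xcr1, so that class may hold other cells, here and in the comparisons below.

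**Figure D3:**
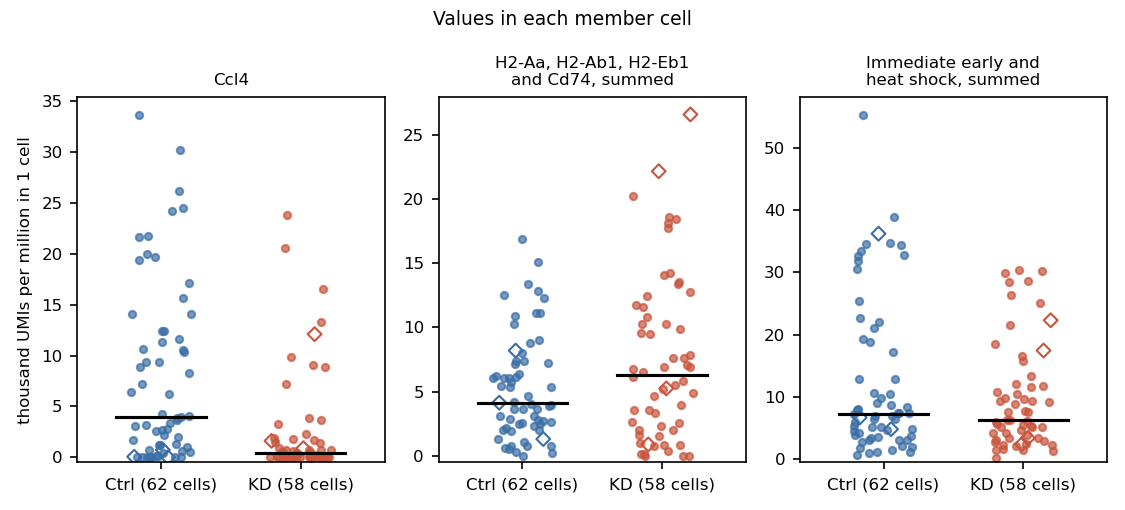
Each point is 1 cell, with its CPM of its own total, divided by 1000 (y axis), for Ctrl and KD (x axis), black lines mark medians, and open diamonds mark the 7 cells with at least 20 UMIs of another list. For Ccl4 the median is 3937 CPM in Ctrl and 454 in KD, and for the 4 class II genes the 2 highest KD points are diamonds.

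MHC class II genes, whose products present peptides to CD4+ T cells, were higher in KD. H2-Aa (ENSMUSG00000036594), the alpha chain of I-A, had 462 UMIs in Ctrl and 700 in KD, with a log2 ratio of 0.71 (0.54 to 0.89). H2-Ab1, its beta chain, had 301 and 479 (0.78, 0.57 to 1.00), H2-Eb1, the beta chain of I-E, 357 and 568 (0.78, 0.59 to 0.98), and Cd74, the invariant chain, 831 and 1261 (0.72, 0.59 to 0.84). Each was short of 2-fold. These are RNA values, and the proteins on the cell surface were not measured. The 4 genes together made up 5151 CPM in Ctrl and 8598 in KD (0.74, 0.66 to 0.82). Per cell the sum had a median of 4094 CPM in Ctrl (0 to 16884) and 6315 in KD (0 to 26568), with wide overlap.

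Part of the class II difference came from 2 cells. The KD cells with cycling and with cDC1 transcripts held 411 and 449 class II UMIs, and without the 7 cells the log2 ratio of the sum was 0.40 (0.31 to 0.50). The value also depended on which members were kept. With members of high doublet score left out, the 4 log2 ratios were 0.24 to 0.39, and when members with at least 2 UMIs of a B, T, NK, macrophage or neutrophil list were left out, which kept 22 Ctrl and 13 KD cells, they were −1.15 to −0.33. At least 2 UMIs of the macrophage list were found in 29 Ctrl and 27 KD members, of the T cell list in 20 and 16, and of the neutrophil list in 2 and 20. The gene most often at 2 UMIs was Cd68 in the macrophage list (11 and 8 members) and Cd8b1 in the T cell list (11 and 14). Cd8b1 was found in 38.7% and 36.2% of all members, 70.4% and 47.1% of T cells and 0.459% and 0.699% of cDC1. Members may therefore have been left out for RNA of their own, which was not tested.

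Promoters are shown for the class II genes held in the RefSeq table (build GRCm38.p6, which is not the build of the counts), since their log2 ratios were alike in size, although short of 2-fold; those of H2-Aa and H2-Eb1 are given. The 250 bases before each start site are written 5′ to 3′, with the letters of the Y box, the CCAAT-type element of class II promoters bound by NF-Y, in capitals.
H2-Aa, chr17:34287824-34288073, minus strand: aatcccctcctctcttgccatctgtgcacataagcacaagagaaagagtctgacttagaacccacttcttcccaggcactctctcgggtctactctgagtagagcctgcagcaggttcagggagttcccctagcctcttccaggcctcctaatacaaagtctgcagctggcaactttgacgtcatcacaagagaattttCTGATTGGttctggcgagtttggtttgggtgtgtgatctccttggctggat
H2-Eb1, chr17:34305617-34305866, plus strand: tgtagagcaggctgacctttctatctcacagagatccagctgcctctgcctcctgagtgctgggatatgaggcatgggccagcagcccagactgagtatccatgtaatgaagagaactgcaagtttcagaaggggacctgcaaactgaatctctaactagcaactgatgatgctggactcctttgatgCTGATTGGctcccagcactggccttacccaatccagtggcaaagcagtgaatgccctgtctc
CTGATTGG began 51 bases before the start site of H2-Aa and 62 before that of H2-Eb1. On either strand it was found in 1258 of 32851 promoters of this length (3.83%). Among the other class II genes in the table it was present for H2-Oa and absent for H2-DMa, H2-DMb1, H2-DMb2 and H2-Ob.

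The other class II genes did not differ in the same way. Of 11 tested genes of the list, 7 lay above 0 and 4 below, none reached 2-fold, and the median log2 ratio was 0.31, against −0.04 over all genes tested. H2-DMa, which loads peptides, had 122 and 112 UMIs (−0.01, −0.39 to 0.37), and Ctss, the protease that trims the invariant chain, had 231 and 210 (−0.02, −0.30 to 0.25). Ciita, the master activator of class II genes, was too low to compare, with 9 and 12 UMIs. In cDC1 and cDC2 the sum of the 4 genes was 21138 and 28266 CPM in Ctrl, above the 5151 of pDCs, and its log2 ratio was −0.09 and 0.15. It was −0.08 in macrophages, −0.07 in B cells, 0.33 in T cells and 0.16 in neutrophils. Within the cDC1 gate, H2-Aa was found in 83.5% of Ctrl and 66.1% of KD cells. That class may therefore be mixed, to a different degree in each library, and its ratio is not one of cDC1 alone. Of the tested class I genes, 0 of 17 were at 2-fold, and their median log2 ratio was −0.03.

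**Figure D4:**
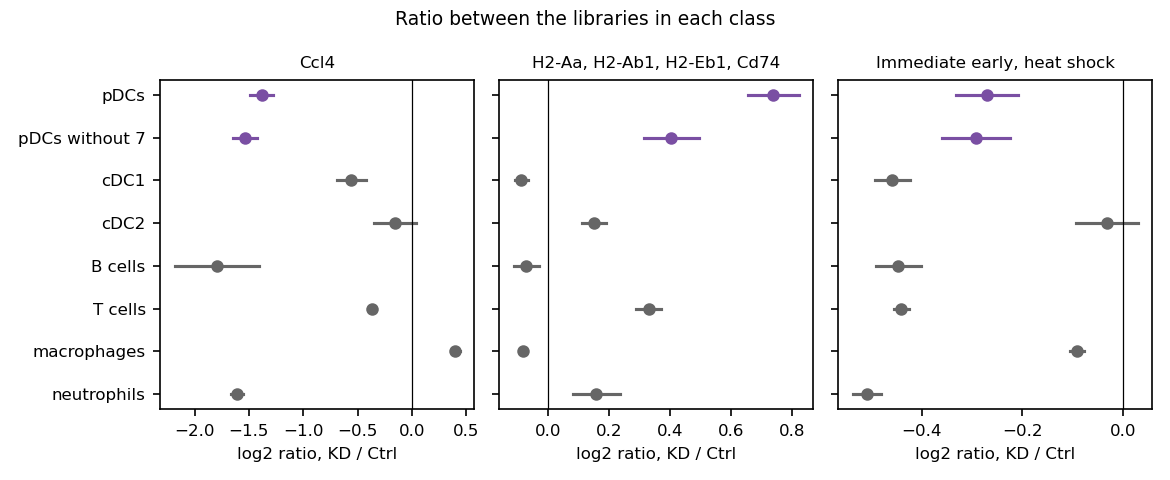
Points are log2 ratios of KD over Ctrl (x axis) of summed UMIs in pDCs, in pDCs without the 7 cells with transcripts of other lists, and in 6 other classes (y axis), and bars are 95% intervals for counting error only. The class II sum is 0.74 in pDCs and 0.40 without the 7 cells, while Ccl4 lies below 0 in every class except macrophages.

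Genes of sensing, the pathway pDCs are known for, were near equal. Of 15 listed genes 9 were tested, none reached 2-fold, and the median log2 ratio was 0.04. Tlr7, the receptor for single-stranded RNA, had 56 UMIs in 31 Ctrl members and 58 in 34 KD members (0.17, −0.39 to 0.72), and Unc93b1, which carries it to endosomes, had 208 and 198. Slc15a4 and Pld4, a transporter and a nuclease of the endosome, had 51 and 60 UMIs and 121 and 115. Irf7, the factor that amplifies type I interferon, had 23 and 32 (0.59, −0.23 to 1.43), and Irf5 38 and 20 (−0.81, −1.67 to 0.01). Tlr9, the receptor for unmethylated DNA, had only 2 UMIs in Ctrl and 0 in KD. No UMI of any of 20 type I and III interferon genes was found, which allows up to 7.92 CPM of each in Ctrl and 8.58 in KD (3 UMIs of the total).

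Genes induced by type I interferon differed in both directions. Of 11 tested, 3 were at least 2-fold higher and 3 lower, with a median log2 ratio of −0.03, and of 0.28 without the 7 cells. Over all genes tested, 2.07% were at least 2-fold higher and 3.13% lower. Higher in KD were Slfn5 (8 and 34 UMIs, 2.20, 1.06 to 3.52), Isg15, a ubiquitin-like modifier (14 and 30 UMIs, 1.21, 0.25 to 2.24), and Ifi209 (16 and 30 UMIs, 1.02, 0.10 to 2.00). Lower were Ifi27l2a (184 and 80 UMIs, −1.09, −1.48 to −0.70), Phf11b (36 and 11 UMIs, −1.60, −2.72 to −0.59) and Zbp1, a nucleic acid sensor (23 and 8 UMIs, −1.41, −2.78 to −0.20). Of 6 tested genes induced mainly by interferon gamma, 5 lay below 0, where 2157 of all 3957 genes did, and none reached 2-fold. Their median log2 ratio was −0.47, −0.30 without the 7 cells and −0.21 without the highest doublet scores. Without the limit on Cd3e, C1qa and Adgre1 the median was 0.12, over 12 tested genes. When members with 2 UMIs of another list were left out, it was −1.33, with 1 tested gene. Irf1 had 129 and 74 UMIs (−0.69, −1.12 to −0.26), and −0.36 without the 7 cells. The interferon receptor gene Ifngr1, with 16 and 40 UMIs, had a log2 ratio of 1.44 and only 0.31 without these cells.

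Among genes that act on T cells, 6 of 24 were tested. Cd274, which encodes PD-L1, had 47 UMIs in 19 Ctrl members and 13 in 11 KD members, with a log2 ratio of −1.74 (−2.75 to −0.83) and of −0.90 without the 7 cells, since the Ctrl cell with 81 macrophage UMIs held 14. Cd274 was also lower in cDC1 (−1.45), cDC2 (−1.10), macrophages (−0.51) and neutrophils (−2.35), and differed less in B cells (−0.18) and T cells (−0.15). Against 2.07% of all genes tested, 1 of 13 tested inhibitory receptors and adaptors was at least 2-fold higher, Cd300a, with 14 and 28 UMIs (1.11, 0.14 to 2.15). The adaptor gene Tyrobp had 794 and 597 UMIs (−0.30, −0.45 to −0.14). Of the SLAM family 2 of 12 genes were tested, and Slamf9, a member found in pDCs, had 45 and 44 UMIs (0.08, −0.55 to 0.71). Ly9 itself, which the hairpin did not target in these host cells, had 10 UMIs in 10 Ctrl members and 14 in 14 KD members.

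Immediate early and heat shock genes, which cell dissociation can induce, were lower in KD as a sum. The 15 genes had 4821 UMIs in Ctrl and 3693 in KD (−0.27, −0.33 to −0.21), 3 were at least 2-fold lower and none higher, and the median gene was at −0.15. Over all genes tested, 3.13% were at least 2-fold lower and 2.07% higher. Fosb, an AP-1 subunit, had 91 and 32 UMIs (−1.39, −2.02 to −0.80) in 31 and 21 members. Atf3, a stress factor, had 61 and 21 (−1.42, −2.21 to −0.69), and Egr1 25 and 7 (−1.72, −3.18 to −0.47). Fos had 244 and 129 (−0.81, −1.12 to −0.49) and the chaperone gene Hspa1b 1237 and 826 (−0.47, −0.60 to −0.34), while Jun had 389 and 360 (0.00, −0.21 to 0.21). The same sum was also lower in KD in cDC1 (−0.46), B cells (−0.45), T cells (−0.44) and neutrophils (−0.51), and closer to 0 in cDC2 (−0.03) and macrophages (−0.09).

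Secretory genes support the large endoplasmic reticulum of pDCs. Of 24 tested, 19 lay below 0, where 2157 of all 3957 genes did. Only 1 of the 24 was at least 2-fold lower, where 3.13% of all genes tested were. The median log2 ratio was −0.24, and −0.10 without the 7 cells. Edem1, which sends misfolded glycoproteins to degradation, had 109 UMIs in 44 Ctrl members and 42 in 24 KD members (−1.26, −1.81 to −0.74). Herpud1, a further degradation factor, had 175 and 101 (−0.68, −1.05 to −0.32), and the chaperone gene Hspa5 276 and 185 (−0.46, −0.74 to −0.19). Xbp1, the transcription factor of this program, had 132 and 121 UMIs (−0.01, −0.38 to 0.36). Of 4 tested survival genes, 4 lay below 0 and 1 reached 2-fold. Over all genes tested, 2157 of 3957 lay below 0 and 3.13% were at least 2-fold lower. Bcl2l11, which encodes the pro-apoptotic BIM, had 90 UMIs in 33 Ctrl members and 33 in 16 KD members (−1.33, −1.95 to −0.74). In the other classes Bcl2l11 ranged from −0.34 in B cells to 0.40 in cDC2.

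Of 16 lymphoid genes that pDCs can share with B cells, 8 were tested and none reached 2-fold. Ighm, the IgM heavy chain, had 280 UMIs in 59 Ctrl members and 282 in 52 KD members (0.12, −0.12 to 0.37), and Dntt had 69 and 77 (0.27, −0.22 to 0.76). Fcrla, an intracellular Fc receptor-like gene, had 75 and 38 (−0.87, −1.47 to −0.28), and Il7r 148 and 98 (−0.48, −0.86 to −0.10). The list of B cell markers itself held only 21 UMIs in Ctrl and 7 in KD. Of homing genes 10 were tested with none at 2-fold, with 5 above 0 and 5 below. The integrin gene Itga4 had 174 and 107 UMIs (−0.59, −0.95 to −0.23), and the chemokine receptor gene Ccr2 had 32 and 58 (0.97, 0.33 to 1.64; 0.52 without the 7 cells). Among dendritic cell transcription factors, Id2, an antagonist of TCF4, had 12 and 38 UMIs (1.78), of which 20 lay in the KD cell with cDC1 transcripts, and −1.01 without the 7 cells. Of 17 tested genes of this list, 1 was at least 2-fold higher and 1 lower, where 2.07% and 3.13% of all genes tested were. The lower one was Relb, an NF-kappa-B subunit, with 25 and 10 UMIs.

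**Figure D5:**
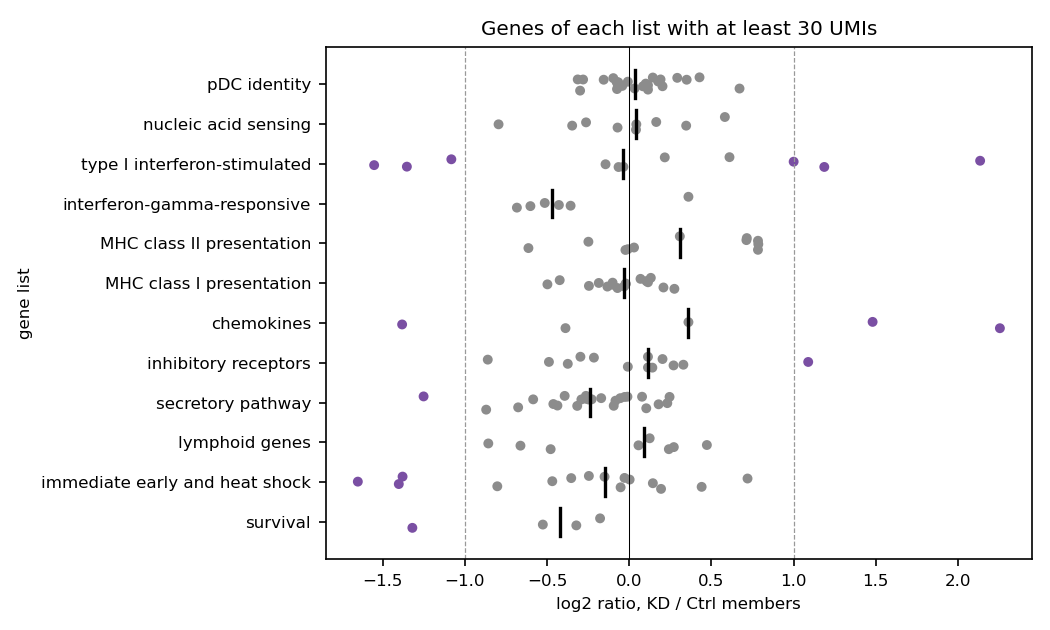
Each point is a gene with at least 30 UMIs, placed by its log2 ratio of KD over Ctrl members (x axis, 0.5 UMI added) in its list (y axis), bars mark list medians, dashed lines mark 2-fold, and purple points lie beyond. The pDC identity genes lie within 2-fold, with a median of 0.03, and Ccl4 is the lowest chemokine.

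Among the other genes named by rank, the 12 lowest in KD (of genes with at least 50 UMIs and not below the other filtered cells) included 3 that lay mostly in the Ctrl cell with endothelial transcripts, Igfbp7 (43 of 45 UMIs), Il6st (41 of 49) and Selenop (39 of 47). Cited2 also lay mostly in 1 Ctrl cell (28 of 43), one with few UMIs of any other list. Spread over many cells were Tent5c, which stabilizes immunoglobulin mRNA, with 86 UMIs in 34 Ctrl members and 24 in 12 KD members (−1.73, −2.44 to −1.06), and Rc3h1, which encodes the mRNA decay factor Roquin-1, with 63 UMIs in 35 and 18 in 15 members (−1.69, −2.54 to −0.92). Bcl3, an NF-kappa-B cofactor, and Itpkb, an inositol trisphosphate kinase, had 43 and 14 UMIs and 44 and 14. Dnase1l3, a secreted nuclease, had 48 and 9, Spacdr 39 and 11, and Atp5l, an ATP synthase subunit, 58 and 19. Atp5l was also below 0 in all 6 other classes, from −1.57 in cDC2 to −0.79 in macrophages. Tent5c was also below 0 in cDC2 (−1.78), cDC1 (−0.56), neutrophils (−0.43) and macrophages (−0.35), and above 0 in B cells (0.31) and T cells (0.13). Bcl3 was −0.99 in cDC2 and ranged from −0.33 in B cells to 0.22 in T cells over the remaining classes. Without the 7 cells the log2 ratio was −2.63 for Cited2, −2.92 for Dnase1l3, −2.13 for Tent5c and −2.11 for Atp5l, and among the highest genes 2.21 for Frmd4a and 1.48 for Id3. The 12 highest were all spread over 17 or more KD members. Frmd4a, a scaffold gene, had 16 UMIs in 13 Ctrl members and 47 in 27 KD members (1.67, 0.82 to 2.59). Id3, a further antagonist of E proteins such as TCF4, had 91 UMIs in 16 and 172 in 22 members (1.03, 0.66 to 1.42). Id3 was also above 0 in all 6 other classes, from 0.50 in cDC1 to 1.38 in T cells. Gnb4, Tspan2, Cdk14, Rad51b, Sesn3, Cirbp, Eldr, St8sia1, Cdk19 and Hsd11b1 had log2 ratios of 1.03 to 1.48.

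Transcripts of other cell types were low in most members and differed between the libraries. The neutrophil list had 16 UMIs over 14 Ctrl members and 555 over 38 KD members, with a log2 ratio of 5.23, and of 2.39 without the 7 cells. The macrophage list had 225 and 119 UMIs, with 0.04 in place of −0.80 without the 7 cells. The endothelial and hepatocyte list had 173 and 80 UMIs, and −0.04 in place of −0.998. NK cell genes had 10 and 7 UMIs. The neutrophil genes therefore differed with the library, and beyond the comparisons without the 7 cells their part in the other differences was not tested.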

How the data were processed

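Droplet 3′ single-cell libraries (10x Genomics v3.1) were made from CD45+ cells of Ctrl and KD liver metastases. Per the labels, the authors ran Cell Ranger 7.1.0 on GRCm39, and the matrices they deposited hold raw UMI counts. Reference tables used here are of GRCm38.p6, so no coordinates of counted genes are given.

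The filter kept barcodes with 200 to 6000 genes, up to 30000 UMIs and no more than 10% of UMIs from mitochondrial genes, and pDCs were selected on the UMI counts stated in the report. The members and the 35 gene lists were chosen with earlier results of these data known. UMIs were summed per library and scaled to CPM. Log2 ratios have exact conditional binomial intervals and shares have exact Clopper-Pearson intervals, both at 95%. With 1 library per group, no p-value was computed, and a gene with at least 30 UMIs over both libraries counted as different at 2-fold, with 0.5 UMI added. Named genes are those of the lists, the 12 highest and 12 lowest log2 ratios with at least 50 UMIs that were not below the other filtered cells in the library where they were higher, leaving out unnamed and sex-linked genes, antigen receptor segments and ribosomal and mitochondrial genes, and the 25 genes with the highest ratio of members to other cells. The other classes were gated on cDC1 (Clec9a or Xcr1), cDC2 (Cd209a), B cell (Cd79a with at least 1 further B cell marker), T cell (Cd3e), macrophage (C1qa with Adgre1) and neutrophil (S100a8 and S100a9, at least 2 UMIs each) genes. All were without Siglech and without those of Cd3e, C1qa, Adgre1 and Cd79a set for the class, and cDC2 also without Clec9a and Xcr1. Further markers of other classes were not excluded.

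Doublets were not removed by the main rule. Scrublet scores (scanpy 1.11.5) marked 850 Ctrl and 930 KD cells, which were left out as an alternative. Other alternatives were stricter cell and gate limits, TMM factors (edgeR 4.0.16), the mean of per-cell CPM, thinning to 1500 UMIs, and other UMI minimums. Leaving out the 7 members with UMIs of other lists, the members under 3000 UMIs or the highest cell of a gene, and the share outside the neutrophil gate, were alternatives chosen after seeing the data. The method was tested on simulated data. Python 3.11.15, NumPy 2.4.6 and SciPy 1.17.1 were used.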

Additional observations from a re-analysis of the deposited data

Results flagged for a closer look

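Ccl4 differed in opposite directions in summed UMIs under the same contrast in the members and in macrophages of the same libraries. Its log2 ratio of KD over Ctrl was −1.38 in pDCs (7681 and 2947 CPM) and 0.40 in macrophages (730 and 961 CPM). The share of macrophages with a Ccl4 UMI was not higher in KD. It was 58.6% in Ctrl and 55.8% in KD, and 34.6% and 34.4% after thinning. The difference between the classes was not tested, since each group was 1 library.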

How the results depend on the processing

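No paired analysis was possible because each group was 1 library, and for the same reason no replicate could be left out. The pDC share in KD minus that in Ctrl stayed within the interval of its main value under 12 of 13 alternatives, although outside the neutrophil gate it was 0.0212 points. It was 0.342 points when cells with at least 2 UMIs over S100a8 and S100a9 and no Siglech were left out, while pDCs with such UMIs were kept. The main rule called 82 genes higher and 124 lower of 3957 tested. When members with 2 UMIs of another list were left out, 45 and 69 of 1033 tested passed 2-fold. Only 0 and 4 of these were shared with the main calls. With members thinned to 1500 UMIs, 341 and 434 of 3957 passed. The counts were 6 and 17 of 1291 with at least 100 UMIs, and 2760 and 2866 of 14481 with no minimum beyond 1 UMI. The other 10 alternatives moved the counts by under 1.5 times, but the genes changed: without the highest doublet scores 33 and 43 were shared. Without the limit on Cd3e, C1qa and Adgre1 the counts were 122 and 131 of 5228 tested, of which only 23 and 52 genes were shared. Of these calls 48.2% were higher, against 39.8% in the main run. Without the 7 members with UMIs of other lists the counts were 74 and 95 of 3544 tested, with 46 and 61 genes shared.

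Of 236 medians of 17 gene lists under the alternatives, 30 lay outside the quartiles of the list's genes in the main run. Of 650 values of 50 single genes, 25 changed sign from a main value whose interval excluded 0, and some values near 0 also changed sign. The log2 ratios in this paragraph have 0.5 UMI added. When members with 2 UMIs of another list were left out, the log2 ratio was −0.50 for H2-Aa, −0.62 for H2-Ab1, −0.33 for H2-Eb1, −1.15 for Cd74, −0.39 for Ctsl, 0.78 for Bcl2l11, 0.18 for Hspa5, −1.05 for Cxcl2, −0.32 for Id2, 0.10 for Itga4, 0.22 for Il7r, 0.23 for Fcrla, 1.27 for Il6st and −0.064 for Id3, with 22 and 13 members left. With thinning it was 0.17 for Atf3, −0.19 for Cxcl2 and −0.31 for Id2. Without the highest doublet scores it was −3.32 for Id2, 1.28 for Igfbp7 and 0.30 for Il6st. Without the 7 members it was −0.89, 1.35 and 0.52 for the same genes, and without the highest cell 0.60 for Igfbp7 and 0.11 for Il6st. Among the members left out for 2 UMIs of another list were those with 2 UMIs of Cd8b1 or Cd68. Apart from fewer cells or UMIs, the cause of these changes was not tested. Ccl4 stayed at least 2-fold lower under its 13 alternatives, from −2.95 to −1.19. At 62 and 58 cells, genes with few UMIs are limited by counting.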
